A study of Homo sapiens with 4 samples.

Results

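TRMT112 and the methyltransferases that bind it were examined in the J-gammal human cell line with and without FYB1 knockdown. The set was defined from a list of 8 gene symbols (TRMT112, N6AMT1, BUD23, METTL5, TRMT11, THUMPD2, THUMPD3 and ALKBH8), looked up by their GENCODE 29 identifiers in the deposited table. The table holds 28274 genes, of which 7 are members of the set; THUMPD2 was not analysed here. The set was chosen on values of the contrast described below, the FPKM of knockdown against control libraries, so fold changes and calls of the members are a description and carry no independent weight.

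The knockdown group comprised 2 libraries of cells labelled sh-FYB1 with the genotype FYB1 knockdown, and the control group comprised 2 libraries of the same cell line, titled NC, with no treatment by source name and a genotype of none. The labels do not spell out NC, do not name the knockdown construct or say whether the controls carried one, and do not say whether libraries with the same label are separate cultures, so calls measure a spread that may be technical. Each library was made from total RNA with an Illumina TruSeq kit, per the labels' protocols. All 8 T cell markers examined averaged at least 1 FPKM, whereas 1 of 4 B cell markers (CD79A) and 0 of 4 myeloid and 0 of 4 epithelial and stromal markers reached that level. The summed level of the T cell markers was 1230 and 1460 FPKM in knockdown libraries 1 and 2, against 1580 and 1490 FPKM in controls, and that of the B cell markers was 11.2 and 15.9 FPKM against 24.7 and 21.4 FPKM; their part in the results was not tested. FYB1, an adaptor protein of T cell receptor signalling, stood at 6.18 and 4.53 FPKM in knockdown libraries 1 and 2, against 17.6 and 20.1 FPKM in controls 1 and 2, and its knockdown mean was 0.285 of the control mean.

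TRMT112 is a small protein without methyltransferase activity of its own that binds several methyltransferases and keeps them soluble and active. Through these partners it takes part in the methylation of ribosomal RNA, transfer RNA, a spliceosomal RNA and a translation release factor. BUD23 and METTL5 modify the RNA of the small ribosomal subunit. TRMT11, THUMPD3 and ALKBH8 modify transfer RNA, ALKBH8 at the wobble uridine, THUMPD2 modifies the spliceosomal RNA U6, and N6AMT1 methylates a glutamine of the release factor eRF1.

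TRMT112 lies on chromosome 11 (64316460 to 64318084, minus strand, hg38) and PRDX5, a peroxiredoxin, begins 3 bases beyond its upstream end on the opposite strand. RefSeq gives 2 start sites of TRMT112, and the windows from 250 bases before to 50 bases after each are shown because TRMT112 had the largest difference of the members; the data do not test these windows. The window of BUD23 is shown beside them because BUD23 was the other member whose knockdown and control values did not overlap. Sequences are from RefSeq on GRCh38.p14, 5′ to 3′ on the strand of the gene, and capitals mark the words CCGGAAG and ATTTGCAT or their reverse complements.
TRMT112, start site 64317559 (chr11:64317510-64317809, minus strand): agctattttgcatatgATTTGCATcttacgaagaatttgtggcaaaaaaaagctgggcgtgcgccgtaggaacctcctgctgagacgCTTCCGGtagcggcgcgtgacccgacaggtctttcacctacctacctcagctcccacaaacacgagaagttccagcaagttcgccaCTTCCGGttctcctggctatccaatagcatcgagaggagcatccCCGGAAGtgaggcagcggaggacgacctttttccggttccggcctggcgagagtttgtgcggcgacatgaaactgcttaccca
TRMT112, start site 64317990 (chr11:64317941-64318240, minus strand): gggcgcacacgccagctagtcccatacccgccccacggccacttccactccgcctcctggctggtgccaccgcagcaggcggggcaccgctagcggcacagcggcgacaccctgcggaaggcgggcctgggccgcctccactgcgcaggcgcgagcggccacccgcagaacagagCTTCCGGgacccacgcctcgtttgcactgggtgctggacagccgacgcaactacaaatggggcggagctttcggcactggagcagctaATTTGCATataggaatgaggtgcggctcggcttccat
BUD23, start site 73683597 (chr7:73683347-73683646, plus strand): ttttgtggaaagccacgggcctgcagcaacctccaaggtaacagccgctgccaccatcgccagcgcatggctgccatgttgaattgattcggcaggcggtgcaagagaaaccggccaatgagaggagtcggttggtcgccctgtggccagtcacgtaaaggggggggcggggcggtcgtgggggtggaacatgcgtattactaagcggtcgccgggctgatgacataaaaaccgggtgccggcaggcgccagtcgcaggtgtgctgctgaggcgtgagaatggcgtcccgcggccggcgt

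The first window holds CCGGAAG, the core of sites bound by ETS transcription factors, 3 times, and the second holds it once. Both hold 1 copy of ATTTGCAT, the octamer bound by POU factors. The 2 words were searched on both strands and do not overlap each other in these windows. Among 35116 RefSeq windows of the same length, 10.3% hold CCGGAAG and 1.77% hold ATTTGCAT. The words, and 4 more, were chosen after the windows were seen. CCAAT was in 4 of 7 member windows against 34.6% of all windows, GGGCGG in 4 of 7 against 45.0%, CACGTG in 0 against 7.26% and TGACGTCA in 0 against 1.85%. Of the members, 6 had at least 1 window in the RefSeq table, and METTL5, THUMPD3 and TRMT11 also hold CCGGAAG once each, whereas BUD23 and ALKBH8 hold neither word. The upstream start site of TRMT112 lies 131 bases from the nearest RefSeq start of PRDX5, so the second window also contains that start.

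The first question was how much RNA of TRMT112 itself was present. TRMT112 stood at 27.1 and 40.4 FPKM in knockdown libraries 1 and 2, against 97.8 and 80.6 FPKM in controls 1 and 2. FPKM are reads per kilobase of merged exon, divided by the library total of the authors. Both knockdown values were lower than both control values, and the gap between the groups was wider than the gap within either. These values rested on 811 and 1346 reads in the knockdown libraries and on 2647 and 2199 reads in the controls. The mean was 33.8 ± 9.46 FPKM in knockdown and 89.2 ± 12.2 FPKM in control libraries (SD, n = 2 each), a ratio of 0.378.

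The log2 fold change of TRMT112, knockdown minus control, was -1.40 ± 0.22 (SE) by limma-trend on log2(FPKM + 1) and -1.42 ± 0.18 by limma-voom on the reads recovered from the FPKM values. Across the whole table, with a Benjamini-Hochberg adjusted p under 0.05 as threshold, limma-trend did not call TRMT112 and limma-voom called it lower. Limma-trend called 0.205% of the 13172 genes tested, 0.137% as lower and 0.0683% as higher, and limma-voom called 7.74%, 5.8% as lower and 1.94% as higher. Since the set was chosen on this contrast, nothing is read from these shares. By limma-trend 19 genes had a more negative fold change than TRMT112, and by limma-voom 63 had. With each library left out in turn, the limma-voom fold change of TRMT112 ran from -1.71 without knockdown library 2 to -1.13 without knockdown library 1. Relative to the control mean TRMT112 was lower by different amounts in the 2 knockdown libraries, with log2 differences of -1.68 in knockdown library 1 and -1.12 in knockdown library 2. In bulk RNA, fewer cells that make a transcript and less transcript per cell cannot be told apart.

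**Figure D1:**
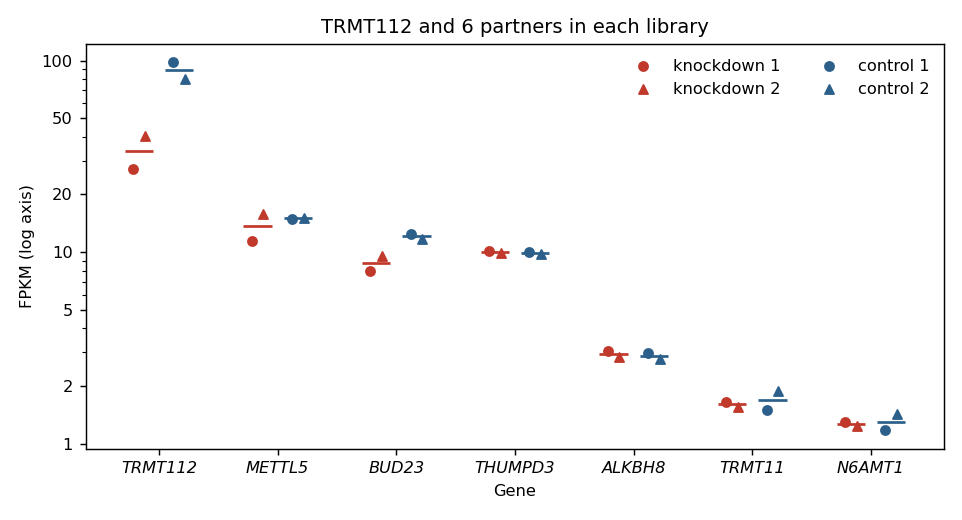
FPKM of TRMT112 and 6 partners on a log axis, ordered by their mean over the 4 libraries; circles are library 1 and triangles library 2 of each group, knockdown in red left of control in blue, and horizontal lines are group means (n = 2 each). TRMT112 averaged 33.8 FPKM in knockdown and 89.2 FPKM in control libraries, and 5 of the 7 genes have values that overlap between groups. Of all genes tested, 34.6% had both knockdown values lower than both control values and 26.0% had both higher.

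Per kilobase of merged exon the partners were less abundant than TRMT112, and they differed much less between groups. Of the 6 partners measured, 1 did not overlap between groups, BUD23. Over all genes tested, 34.6% had both knockdown values lower than both control values and 26.0% had both higher. Such separation was thus common among the genes tested. Limma-voom called 0 of the 6 partners, against 7.74% of all genes tested. Over the 7 members, all of which passed the filter of a mean of at least 1 FPKM, 5 had a lower and 2 a higher fold change in knockdown, with a median log2 fold change of -0.04, against -0.03 over all 13172 genes tested. Limma-trend called 0 of the 7, with 2 at an unadjusted p under 0.05, TRMT112 and BUD23, where 23.4% of all genes were under it. Limma-voom called 1 of the 7, TRMT112, and 2 were at an unadjusted p under 0.05, where 28.4% of all genes were. The plot of FPKM by library shows this contrast between TRMT112 and the rest.

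Among the partners that modify ribosomal RNA, BUD23 deposits the methyl group on a guanosine of the small subunit and is needed for the maturation of that subunit. BUD23 stood at 7.96 and 9.57 FPKM in knockdown libraries 1 and 2, against 12.4 and 11.7 FPKM in controls 1 and 2. Both knockdown values lay under both control values, as in 34.6% of all genes tested (26.0% had both knockdown values higher), and its log2 fold change was -0.43 ± 0.12 (SE) by limma-trend and -0.47 ± 0.13 by limma-voom, with a ratio of means of 0.725. Neither fit called BUD23, and 11.2% of all genes had a more negative fold change by limma-trend. Limma-voom gave a fold change of -0.60 without knockdown library 2 and of -0.34 without knockdown library 1.

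METTL5, the enzyme that methylates an adenosine of the same ribosomal RNA and depends on TRMT112 for its stability, stood at 11.5 and 15.8 FPKM in knockdown libraries 1 and 2, against 14.9 and 15.1 FPKM in controls 1 and 2. The 2 knockdown libraries lay on either side of the controls. Its log2 fold change was -0.14 ± 0.16 (SE) by limma-trend, -0.36 against the control mean in knockdown library 1 and 0.07 in knockdown library 2. METTL5 thus had the widest gap between the knockdown libraries of the 6 partners, -0.43 on the log2 scale for library 1 minus library 2, against -0.02 between the controls.

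The transfer RNA partners overlapped between groups. THUMPD3, which methylates a guanosine of transfer RNA, stood at 10.1 and 9.85 FPKM in knockdown libraries 1 and 2 and at 10.03 and 9.77 FPKM in controls 1 and 2, with a log2 fold change of 0.01 ± 0.09 (SE) by limma-trend. ALKBH8, which completes the modified wobble uridine with a methyltransferase and a hydroxylase domain, stood at 3.05 and 2.84 FPKM in knockdown and at 2.97 and 2.78 FPKM in control libraries (log2 fold change 0.03 ± 0.11). Both genes varied less between libraries than TRMT112 did within either group. TRMT11, which methylates another guanosine of transfer RNA, stood at 1.65 and 1.55 FPKM in knockdown and at 1.499 and 1.878 FPKM in control libraries (log2 fold change -0.04 ± 0.15), and it rested on 144 to 183 reads a library.

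N6AMT1, the glutamine methyltransferase of the release factor, was the least abundant member. It stood at 1.30 and 1.23 FPKM in knockdown libraries 1 and 2, against 1.17 and 1.43 FPKM in controls 1 and 2, from 95 to 123 reads a library. Its log2 fold change was -0.02 ± 0.17 (SE) by limma-trend, and the knockdown values lay between the controls. The signs of the small differences of N6AMT1, TRMT11, THUMPD3, ALKBH8 and METTL5 changed with the processing.

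**Figure D2:**
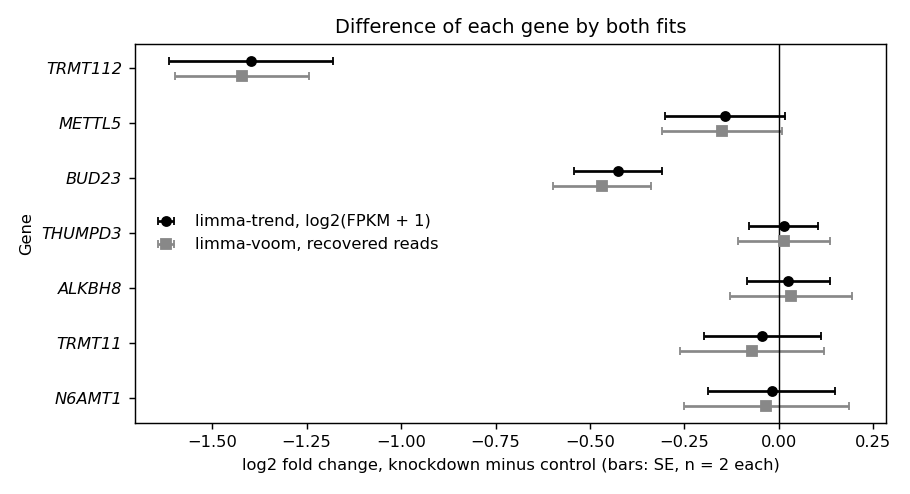
Log2 fold change of each member, knockdown minus control, by limma-trend on log2(FPKM + 1) (circles) and by limma-voom on recovered reads (squares); bars are standard errors (n = 2 libraries each). TRMT112 lies at -1.40 and -1.42, BUD23 at -0.43 and -0.47, and the other 5 between -0.15 and 0.03.

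The plot of both fits shows that both fits, which use the same library totals of the authors, gave each member nearly the same fold change. The scaling of the libraries moved the fold changes more. With each library scaled to its summed reads, the median over all genes was 0.08 instead of -0.03, with TRMT112 at -1.26 and BUD23 at -0.30. With quantile normalization TRMT112 stood at -1.14 and BUD23 at -0.37. Both genes were lower in knockdown under each of these scalings.

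Levels of the members spanned a wide range. Averaged over the 4 libraries, per kilobase of merged exon, TRMT112 came first at 61.5 FPKM, and METTL5, BUD23 and THUMPD3 followed at 14.3, 10.4 and 9.95 FPKM. ALKBH8, TRMT11 and N6AMT1 came last at 2.91, 1.64 and 1.29 FPKM. BUD23 averaged less than THUMPD3 in knockdown libraries (8.77 against 9.99 FPKM) and more in controls (12.1 against 9.90 FPKM). The values of METTL5 and BUD23 overlapped, as did those of BUD23 and THUMPD3, and the other neighbours in this order did not.

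This order depends on the length used. The merged exons of TRMT112 cover the whole gene, 1625 bases, because its 6 annotated transcripts together span every base, whereas its 5 coding transcripts are 561 to 1106 bases long. BUD23 has 18 annotated transcripts, 5 of them with a retained intron, and merged exons of 7944 bases, but its longest coding transcript has 1230 bases. With reads divided by the length of the longest coding transcript, a choice made after the values were seen, the levels per kilobase were 90.3 for TRMT112, 67.35 for BUD23, 29.9 for METTL5, 13.5 for THUMPD3, 5.03 for TRMT11, 3.21 for ALKBH8 and 1.29 for N6AMT1 as means of the 4 libraries. TRMT112 and BUD23 then overlapped, and their order differed between groups: TRMT112 averaged 49.6 and BUD23 56.6 in knockdown libraries, and TRMT112 131.1 and BUD23 78.1 in controls. Differences between groups within a gene do not depend on this length, other than through the pseudocount.

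Since the partners share TRMT112 as their subunit, its RNA was also set against the summed RNA of the 6 partners. The partner sum was 35.6 and 40.8 FPKM in knockdown libraries 1 and 2, against 43 and 42.7 FPKM in controls 1 and 2. TRMT112 was 0.761 and 0.99 of that sum in knockdown libraries 1 and 2, against 2.28 and 1.89 of it in controls 1 and 2. On the length of the longest coding transcript the ratio was 0.402 and 0.507 in knockdown libraries and 1.07 and 0.905 in controls. The knockdown libraries lay under the controls on both scales. Both scales weight the same reads, and the ratio follows the TRMT112 difference on which the set was chosen, so it is no separate support. On merged exon length TRMT112 exceeded the partner sum in the controls alone, with knockdown library 2 close to it at 0.99. THUMPD2 is not in this sum, and RNA ratios say nothing of the amounts of protein.

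**Figure D3:**
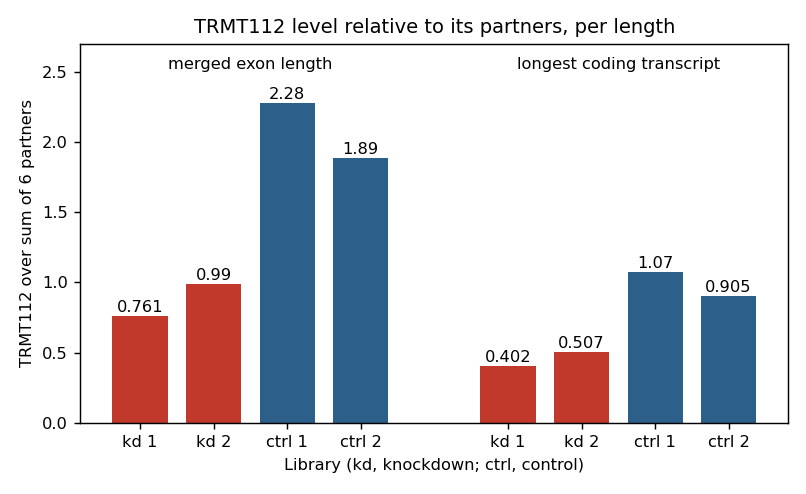
Level of TRMT112 divided by the summed level of 6 partners in each library, per merged exon length (left) and per longest coding transcript (right); kd is knockdown (red) and ctrl is control (blue), and each bar is 1 library. The ratio was 0.761 and 0.99 in knockdown against 2.28 and 1.89 in control libraries on the first scale, and 0.402 and 0.507 against 1.07 and 0.905 on the second.

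The genes around TRMT112 were compared next. PRDX5, an antioxidant enzyme that starts beside TRMT112 on the opposite strand, stood at 139.7 and 235.6 FPKM in knockdown libraries 1 and 2, against 352 and 306 FPKM in controls 1 and 2. Limma-voom called it lower (log2 fold change -0.86 ± 0.20, SE), limma-trend did not (-0.85 ± 0.27), and its knockdown mean was 0.57 of the control mean. PRDX5 and TRMT112 were thus both lower in knockdown, and both were lowest in knockdown library 1. Of all genes tested, 34.6% had both knockdown values lower than both control values and 26.0% had both higher. Among the partners, BUD23 and METTL5 were also lowest in knockdown library 1, and the others were not. The merged exons of PRDX5 cover 893 bases, and coding genes of 207 to 2913 bases had a median log2 fold change of -0.26. A link between the neighbouring genes was not tested. Under quantile normalization the log2 fold change of PRDX5 was -0.46. Limma-voom no longer called it without knockdown library 1 (-0.48) or without control 1 (-0.76).

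ESRRA, a nuclear receptor gene on the plus strand, ends inside TRMT112 and shares 284 bases with it. ESRRA stood at 21.9 and 27.5 FPKM in knockdown libraries 1 and 2, against 28.7 and 27.9 FPKM in controls 1 and 2 (log2 fold change -0.20 ± 0.14, SE, by limma-trend), and neither fit called it. All ESRRA values in knockdown lay under those in controls, by a small margin in library 2. How strand was treated in counting is not given in the labels, so reads in the shared bases cannot be assigned to one gene with certainty. As a share of the control mean, knockdown libraries 1 and 2 stood at 77.5% and 97.1% for ESRRA, 30.3% and 45.3% for TRMT112, and 42.5% and 71.6% for PRDX5.

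**Figure D4:**
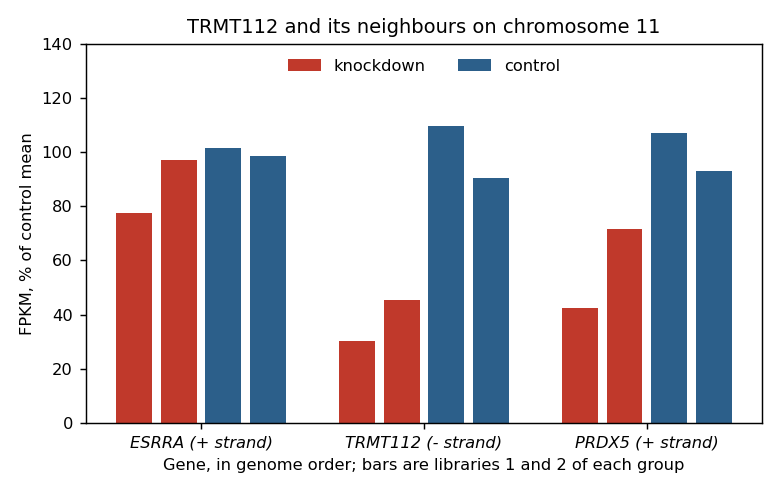
FPKM of ESRRA, TRMT112 and PRDX5 as a percentage of the control mean of each gene; bars are libraries 1 and 2 of knockdown (red) and then of control (blue), and genes are in their order along chromosome 11. TRMT112 stood at 30.3% and 45.3% in knockdown libraries, PRDX5 at 42.5% and 71.6%, and ESRRA at 77.5% and 97.1%.

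Other members also share bases with genes on the opposite strand. BUD23 (chromosome 7, 73683025 to 73705161) overlaps DNAJC30, a mitochondrial protein gene, by 429 bases and STX1A, a syntaxin gene, by 5956 bases. DNAJC30 averaged 1.97 ± 0.38 FPKM in knockdown and 1.88 ± 0.249 FPKM in control libraries, and STX1A 1.97 ± 0.1 and 1.86 ± 0.332 FPKM in the same order (SD, n = 2 each). Their groups overlapped, unlike those of BUD23. TRMT11 lies on chromosome 6 (125986430 to 126203817), ALKBH8 on chromosome 11 (107502726 to 107565746) and N6AMT1 on chromosome 21 (28872191 to 28885371), and no other gene of the table lies within 1000 bases of these. METTL5 (chromosome 2, 169810081 to 169824931) shares 1984 bases with SSB, the La RNA-binding protein, which averaged 11.8 ± 0.562 FPKM in knockdown and 12.8 ± 0.39 FPKM in control libraries. THUMPD3 (chromosome 3, 9362842 to 9386791) lies wholly within the antisense gene THUMPD3-AS1, at 3.59 ± 0.099 FPKM in knockdown and 3.21 ± 0.275 FPKM in control libraries, and also touches SRGAP3 and AC026191.1 at its start. VPS37D, a sorting complex subunit gene listed as a neighbour of BUD23 that does not lie within that distance, was called lower by limma-voom, at 18.5 ± 5.22 FPKM in knockdown and 32.5 ± 0.426 FPKM in control libraries.

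Fold change also went with gene length. Over the 10570 protein-coding genes tested, Spearman's rho between merged exon length and log2 fold change was 0.45, given as a description because the genes share the same 4 libraries. The shortest of 5 equal groups of coding genes, 207 to 2913 bases, held TRMT112 and METTL5 and had a median log2 fold change of -0.26, with 16.1% called by limma-voom. By its merged exon length BUD23 was in the group of 5907 to 8189 bases, whose median was 0.03. Its longest coding transcript has 1230 bases, but genes were not grouped by that length. With a smooth trend on exon length removed from each library, TRMT112 stood at -1.20 and was called by limma-trend, BUD23 stood at -0.47 and METTL5 at 0.02.

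The genes whose 4 values lay closest to those of TRMT112 came from other systems. Likeness was measured as the Euclidean distance between log2(FPKM + 1) values, each minus the mean of its gene, over 4 libraries and the 7742 other genes that averaged 5 FPKM or more. The closest were TRBC1, a constant segment of the T cell receptor beta chain (distance 0.17), TRBV12-4 (0.18), IGHV1-3 (0.20), TRBV12-3 (0.20) and TMED9, a cargo receptor of the early secretory pathway (0.21). TMED9 stood at 15.3 and 20.1 FPKM in knockdown libraries 1 and 2, against 46 and 41.4 FPKM in controls 1 and 2. TRBC1 stood at 469 and 647 FPKM in knockdown libraries and at 1404 and 1237 FPKM in controls. Reads of the receptor segments are uncertain because near-identical copies exist, and IGHV1-3 rested on 14 to 71 reads a library. PRDX5 ranked 74th by the same measure (distance 0.56).

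The last question was how other genes of RNA modification and translation termination behaved. Limma-trend called 0 genes in each of the 6 lists below. Genes at an unadjusted p under 0.05 numbered 1 of 28 other transfer RNA methyltransferases, 4 of 12 in the wobble uridine pathway, 6 of 19 in the ribosomal RNA list, 0 of 9 in translation termination, 1 of 9 in mRNA adenosine methylation and 5 of 13 in U6 maturation, where 23.4% of all genes tested were. Of all genes tested, 54.3% were lower, the median log2 fold change was -0.03 (0.08 with summed reads), and limma-voom called 5.8% as lower, against which the counts and medians of each list below are to be read. Of 28 other transfer RNA methyltransferase genes tested, limma-voom called 0, 12 were lower and 16 higher, and the median log2 fold change was 0.03, or 0.15 with libraries scaled to summed reads. WDR6, a partner of a ribose methyltransferase, and TRMT10C, a subunit of mitochondrial RNase P, were the most abundant of them. WDR6 averaged 36.9 ± 4.76 FPKM in knockdown and 41.1 ± 0.259 FPKM in control libraries, and TRMT10C 19.4 ± 1.73 and 19.9 ± 2.56 FPKM in the same order (SD, n = 2 each).

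In the wobble uridine list of Elongator and thiolation genes, 8 of 12 tested were lower and the median log2 fold change was -0.18. Limma-voom called 1 of them, ELP5, as lower. The median was -0.08 with libraries scaled to summed reads and -0.05 with the exon length trend removed. ELP5, a subunit of the Elongator complex, averaged 23.3 ± 4.4 FPKM in knockdown and 36.3 ± 2.74 FPKM in control libraries (limma-trend log2 fold change -0.63 ± 0.16, SE).

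Among ribosomal RNA methyltransferases and associated factors, 14 of 19 genes tested were lower and the median was -0.11, which became 0.01 with libraries scaled to summed reads. Limma-voom called 1 of them, NAT10, as lower. NAT10 is an acetyltransferase of ribosomal and transfer RNA and not a methyltransferase, and it averaged 19 ± 1.33 FPKM in knockdown and 27.5 ± 0.0792 FPKM in control libraries (log2 fold change -0.51 ± 0.11, SE, by limma-trend).

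The translation termination list, which holds the substrate of N6AMT1, had a median of 0.01 (0.11 with libraries scaled to summed reads) over 9 genes, 4 lower and 5 higher, with 0 called by limma-voom. GSPT1, the release factor that partners eRF1, averaged 21.3 ± 0.0986 FPKM in knockdown and 21.7 ± 0.772 FPKM in control libraries, and MRPL58, a peptidyl-tRNA hydrolase of mitochondrial ribosomes, 22.8 ± 2.27 and 27.8 ± 3.79 FPKM in the same order. The mRNA adenosine methylation complex had a median of -0.01 over 9 genes, 0.18 after quantile normalization and 0.12 with libraries scaled to summed reads. Limma-voom called 1 of the 9, RBM15, as lower. RBM15 is an RNA-binding subunit of that complex and averaged 16.2 ± 0.884 FPKM in knockdown and 23.4 ± 1.51 FPKM in control libraries.

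Of 13 genes of U6 RNA maturation, 10 were lower, the median was -0.22 (-0.11 with libraries scaled to summed reads), and limma-voom called 2, both lower. They were LSM7, at 38.6 ± 9.69 FPKM in knockdown and 66.8 ± 5.03 FPKM in control libraries, and LSM4, at 50.6 ± 14.9 and 86.1 ± 6.92 FPKM in the same order (SD, n = 2 each). Both encode subunits of the ring that binds the end of U6 RNA. Leaving out knockdown library 2 gave a list median of -0.42, and leaving out knockdown library 1 gave -0.16. None of the genes in these 6 lists had a fold change as low as that of TRMT112, the lowest being LSM7 at -0.80 by limma-trend. Since the set of TRMT112 was chosen on this contrast, nothing is read from that order.

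**Figure D5:**
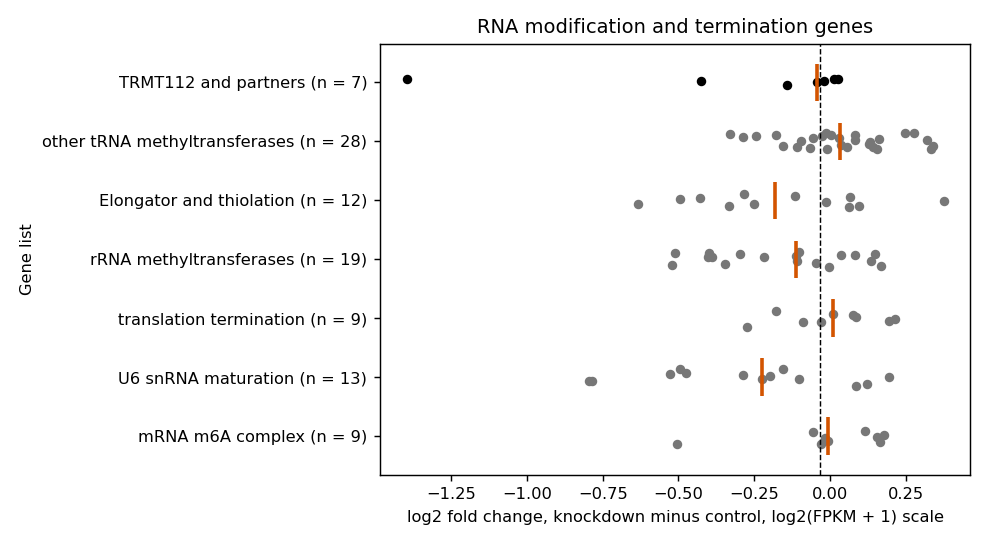
Log2 fold change of each tested gene, knockdown minus control, by limma-trend for TRMT112 with its partners (black) and for 6 other lists (gray); orange lines are list medians and the dashed line is the median of all 13172 genes tested, -0.03. TRMT112, whose set was chosen on this contrast, lies at -1.40, and of the other genes plotted LSM7 is lowest at -0.80.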

How the data were processed

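The 4 RNA-seq libraries, 2 per group, were aligned by HISAT2 2.0.5 to hg38, per the submitters' processing notes; the counter, annotation and strand setting are not given in the labels. The authors deposited 1 value per gene and library without naming a unit. The deposited values were identified as FPKM because multiplying by GENCODE 29 merged exon length gave whole multiples of a constant of each library for 100% of genes (tolerance 0.001), and all 28274 identifiers matched. Division by that constant recovered 16693113 to 20251864 reads a library. Knockdown libraries 1 and 2 held 16693113 and 20251864 reads, under the authors' totals of 18436617 and 20480491. Controls 1 and 2 held 17597678 and 17216663 reads, over the authors' totals of 16648943 and 16789004. This mismatch ran with the group and its reason was not tested.

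The 13172 genes averaging 1 FPKM or more were tested with limma-trend (limma 3.58.1, R 4.3.3) on log2(FPKM + 1), with the group as the single term and Benjamini-Hochberg adjustment. Limma-voom was run beside it on recovered reads, using the library totals the authors had divided by. Both fits were tested on simulated data. The simulated fold changes had no trend with exon length, unlike these data, so that test says little of the calls here. No replicate block was used because equal numbers are not said to mark shared cultures. The members and lists were chosen with earlier results of these data known. Named genes are FYB1, the members, up to 4 genes per list called by either fit or otherwise the 2 with the highest mean, neighbours overlapping a member or starting within 1 kb of it, and the 5 genes nearest to TRMT112. Alternatives are given at the end.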

Additional observations from a re-analysis of the deposited data

How the results depend on the processing

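The values of TRMT112 and BUD23 did not overlap between groups, so leaving out 1 library or changing the pseudocount could not reverse their signs. The filters and blocks left their limma-trend log2 fold changes at -1.40 and -0.43. With that limit, both were lower in knockdown in all 18 alternatives, at -1.71 to -1.12 for TRMT112 and -0.60 to -0.30 for BUD23. Among fits on all 4 libraries, TRMT112, not called by limma-trend, was called by limma-voom (-1.42) and with a mean of at least 5 FPKM (-1.40). It was also called with the replicate block (-1.40), the exon length trend removed (-1.20) and the crossed block (-1.40), which was added after the data were seen. It was not called with quantile normalization (-1.14), summed reads (-1.26), every gene above 0 (-1.40) or a pseudocount of 0.1 (-1.42) or 5 (-1.30). Limma-voom gave -1.13 without knockdown library 1, -1.71 without knockdown library 2, -1.28 without control 1 and -1.56 without control 2. Limma-trend without 1 library gave -1.68 to -1.12. Among fits on all 4 libraries, BUD23 was called with the crossed block alone (-0.43). For fits without 1 library, only fold changes are given here for single members. By limma-voom without knockdown library 2, BUD23 stood at -0.60 and METTL5 at -0.38. Members called numbered 0 by limma-trend, 1 by limma-voom, the 5 FPKM filter, the replicate block and the length trend, 2 with the crossed block, 0 to 1 by limma-trend and 1 to 3 by limma-voom without 1 library. These counts are to be read against all genes called, out of 13172 tested except under the 5 FPKM filter. Limma-trend called 27 genes, limma-voom 1019, the 5 FPKM filter 181, the replicate block 781, the length trend 111 and the crossed block 1910. Genes called without 1 library are given below and varied widely with the library left out. Nothing about the members is therefore read from how many were called. The 5 FPKM filter gave no value for N6AMT1, TRMT11 and ALKBH8.

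Signs reversed for 5 members. N6AMT1 stood at 0.059 with summed reads, 0.045 without the length trend, -0.10 to 0.063 by limma-trend without 1 library, and 0.0079 and 0.11 by limma-voom without knockdown library 2 or control 2. TRMT11 stood at 0.042 with summed reads, -0.15 to 0.058 by limma-trend without 1 library and 0.092 by limma-voom without control 2. METTL5 stood at 0.022 without the length trend, -0.36 to 0.072 by limma-trend without 1 library and 0.077 by limma-voom without knockdown library 1. THUMPD3 stood at -0.0070 to 0.032 by limma-trend without 1 library, and at -0.0077 and -0.0057 by limma-voom without knockdown library 1 or control 2. ALKBH8 stood at -0.027 after quantile normalization, -0.013 to 0.063 by limma-trend without 1 library, and at -0.0173 and -0.0172 by limma-voom without knockdown library 1 or control 2. The cause was not tested.

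Genes called numbered 27 (9 higher, 18 lower) by limma-trend, 1019 (255, 764) by limma-voom, 45 (18 higher) after quantile normalization, 76 (28, 48) with summed reads, 0 with every gene above 0, 181 (32, 149) with the 5 FPKM filter, 781 (289, 492) with the replicate block, 111 (36, 75) without the length trend, and 0 to 406 (0 to 198, 0 to 208) without 1 library. Limma-voom called 102 (28, 74) without knockdown library 1, 3877 (1276, 2601) without knockdown library 2, 136 (27, 109) without control 1 and 496 (127, 369) without control 2. The crossed block, added since deviations of same-numbered libraries correlated at -0.21 over 13172 genes, called 1910 (607, 1303); the numbers were not taken to pair libraries. Limma-voom called 1 gene each of the wobble uridine, ribosomal RNA and mRNA methylation lists, 2 of U6 maturation and 2 neighbours, and the replicate block called 2 of U6 maturation and 1 neighbour. The limma-voom fits without 1 library, the crossed block and the coding transcript length were chosen after seeing the data. N6AMT1 and TRMT11 had the fewest reads of the members, 95 to 183 a library.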
